A study of Mus musculus with 6 samples.

Results

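Splicing factor and spliceosome genes were followed in mouse bone marrow progenitors in which Rad21, a core subunit of the cohesin ring, was targeted with shRNAs. The genes were taken by name: every gene whose symbol in the platform annotation starts with U2af, Sf3a, Sf3b, Snrp, Srsf, Prpf or Hnrnp and which has a probe set assigned to no other gene. These are 57 of the 12393 genes measured, read by 141 probe sets. They comprise 3 U2af genes, 9 Sf3a and Sf3b genes, 8 Snrp genes, 9 Srsf genes, 10 Prpf genes and 18 Hnrnp genes. Where a gene had several probe sets, the one with the highest mean over all arrays represented it. A further 15 probe sets of such genes also match other genes and were kept out, and 5 genes with fitting names (Hnrnpa1l2-ps2, Hnrnpa3, Snrpa, Snrpd1 and Snrpd2) have only shared ones, so they are not among the 57.

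Lineage-depleted marrow cells, from C57/BL6 mice 6 to 8 weeks of age, received 1 of 3 lentiviruses, carrying no shRNA (Empty Vector), Rad21 shRNA1 or Rad21 shRNA2. Infection took 24 h, and all groups were selected overnight with puromycin at 1 µg/mL, sorted for live cells and plated at 10000 cells per mL in methylcellulose with cytokines that the labels do not name. RNA was collected on day 7, when the first plating ended, and hybridised to Affymetrix arrays, 2 per group and 6 in all. The control vector holds no non-targeting shRNA, the RNA comes from whole mixed colonies, and the labels do not say whether the 2 arrays of a group come from separate mice or cultures, so the spread that p-values rest on may be technical.

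The spliceosome removes introns from pre-mRNA in ordered steps. U2AF binds the end of the intron, the SF3A and SF3B complexes hold the U2 small nuclear ribonucleoprotein (snRNP) at the branch point, Sm proteins form the ring around the snRNAs, and PRPF proteins carry the complex through activation and catalysis. SR proteins (Srsf genes) bind exons and mostly favour splice-site use, whereas hnRNP proteins coat nascent RNA and often counter it. SF3B1, SRSF2 and U2AF1 are recurrently mutated in myeloid neoplasms, a disease group in which cohesin genes including RAD21 are mutated too.

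Values below are log2 intensities on each array, and differences are log2 differences with a standard error from limma, adjusted by Benjamini-Hochberg over all 12393 genes with a threshold of 0.05. Brightness depends on the probes, so levels are compared between arrays and not between genes, and brightest or dimmest refers to the signal of the probe sets, not to the amount of RNA. In such bulk RNA, fewer cells of a type and less of an RNA per cell cannot be told apart.

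The promoters of 4 members are shown because they belong to the 3 members that passed the threshold in some contrast (Snrpg, Srsf2 and U2af1) and to the one with the largest negative difference (Prpf4b). Each is the run of 250 bases before the RefSeq start site in build GRCm38.p6, written 5′ to 3′ on the gene's own strand, with CCAAT and its reverse complement ATTGG in capitals.
Snrpg, chr6:86371290-86371539, plus strand: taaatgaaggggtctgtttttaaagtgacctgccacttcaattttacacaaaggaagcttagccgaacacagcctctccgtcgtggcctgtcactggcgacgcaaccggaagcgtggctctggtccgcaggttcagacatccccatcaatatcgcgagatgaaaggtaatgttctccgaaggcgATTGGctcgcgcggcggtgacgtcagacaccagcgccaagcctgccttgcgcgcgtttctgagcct
Srsf2, chr11:116853095-116853344, minus strand: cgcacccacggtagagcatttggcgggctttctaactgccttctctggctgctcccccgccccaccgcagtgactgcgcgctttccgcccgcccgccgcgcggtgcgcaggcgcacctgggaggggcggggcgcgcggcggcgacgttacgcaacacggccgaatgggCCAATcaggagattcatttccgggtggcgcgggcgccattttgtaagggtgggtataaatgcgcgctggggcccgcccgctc
U2af1, chr17:31658765-31659014, minus strand: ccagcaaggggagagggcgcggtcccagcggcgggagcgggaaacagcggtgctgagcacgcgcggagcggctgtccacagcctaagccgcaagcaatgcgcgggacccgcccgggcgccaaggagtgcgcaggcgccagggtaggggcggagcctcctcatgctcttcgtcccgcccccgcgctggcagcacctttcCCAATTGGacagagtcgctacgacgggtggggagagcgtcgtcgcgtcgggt
Prpf4b, chr13:34875279-34875528, plus strand: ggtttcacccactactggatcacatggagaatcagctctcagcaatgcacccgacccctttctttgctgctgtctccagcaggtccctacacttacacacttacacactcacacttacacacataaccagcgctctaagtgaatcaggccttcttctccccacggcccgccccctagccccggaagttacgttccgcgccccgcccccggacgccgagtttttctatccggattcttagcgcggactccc

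The Snrpg promoter carries ATTGG from position -66, counted from the start site, and the Srsf2 promoter carries CCAAT from position -82. In U2af1, whose table entry has 2 start sites of which the first is used, CCAAT at -52 and ATTGG at -49 overlap in 1 palindromic stretch. The Prpf4b stretch holds neither word. All 4 stretches are rich in G and C, from 55.6% in Snrpg to 71.6% in U2af1.

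RefSeq promoters were found for 51 of the 57 members, and 25 of them, 49.0%, hold CCAAT on either strand, against 35.8% of the promoters of 9887 measured genes and 33.8% of all 32851 promoters in the table. The word CCGGAAG, a core of the ETS binding site, occurs on either strand in 31.4% of member promoters, 11.6% of those of measured genes and 6.91% of all. For GGGCGG, the GC box, the shares are 64.7%, 53.2% and 32.7%, and for TGACGT, the core of the cyclic AMP response element, 17.6%, 9.07% and 6.47%. The TATA box word TATAAA (7.84%, 9.14% and 12.4%) and the E-box word CACGTG (5.88%, 7.74% and 6.02%) are not more frequent in members than in measured genes. These are counts of letters, chosen after promoters of members had been read, and no binding was measured.

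The shRNA target was checked first. Rad21 had a log2 intensity of 11.14 and 10.49 on the Empty Vector arrays, 9.63 and 9.14 with shRNA1, and 9.50 and 9.11 with shRNA2. Every shRNA array lay below both controls. The difference for both shRNAs was -1.47 ± 0.26, which limma put just outside the threshold (adjusted p = 0.0558) and inside it with replicate number as a block (adjusted p = 0.0166). The knockdown did not separate the shRNAs, whose Rad21 levels differed by 0.08 ± 0.30.

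The 2 control arrays did not agree well, and this touches every contrast with the control. On Empty Vector replicate 1 the 3′ control probe set of Gapdh was brighter than the 5′ one by 2.42, against -0.08 to 0.02 on the other 5 arrays, and the same gap for Actb was 2.55 against 0.22 to 0.33. Of the members, 45 of 57 (78.9%) were brighter on control replicate 1 than on replicate 2, against 58.0% of all genes, with a median gap of 0.30 against 0.08. The gaps ran from -1.58 for Srsf11 to 1.87 for Sf3a2, and 8 members (14.0%, against 10.9% of all genes) were more than 1 log2 unit apart. Results are therefore given with and without this array, and its part in them was not otherwise tested. Of the 4 haematopoietic markers fixed for the check of the cells (Ptprc, Spi1, Lyl1 and Itgb2), all 4 were above the array median on every array, and all 6 measured B cell markers were below it.

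For both shRNAs together, 1 of the 57 members rose past the threshold and none fell in limma's test. That is Snrpg, and the share of 1.75% lies near the 2.13% of all genes called in either direction (0.734% higher and 1.4% lower). In a limma fit to all probe sets, none of the members' 141 was called for both shRNAs. At an unadjusted p under 0.05 the count was 10 members, all higher, where 7.88% of all genes were higher, 8.84% lower and 16.7% either way. The median difference of the members was 0.12, against -0.02 for all genes, and 39 of 57 (68.4%) lay above 0, against 46.4%. Among the brighter 50% of genes by mean intensity, which hold 55 of the members, 3323 of 6196 lay above 0, with a median of 0.04. In 13 members (22.8%, against 11.5% of genes) all 4 shRNA arrays lay above both controls, and in 3 (against 13.6% of genes) all 4 lay below. The 13 were U2af1, Sf3b1, Sf3b4, Sf3b5, Snrpb, Snrpd3, Snrpg, Snrpn, Srsf2, Srsf3, Srsf5, Srsf11 and Prpf8, and the 3 were U2af1l4, Prpf4b and Prpf38b.

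**Figure D1:**
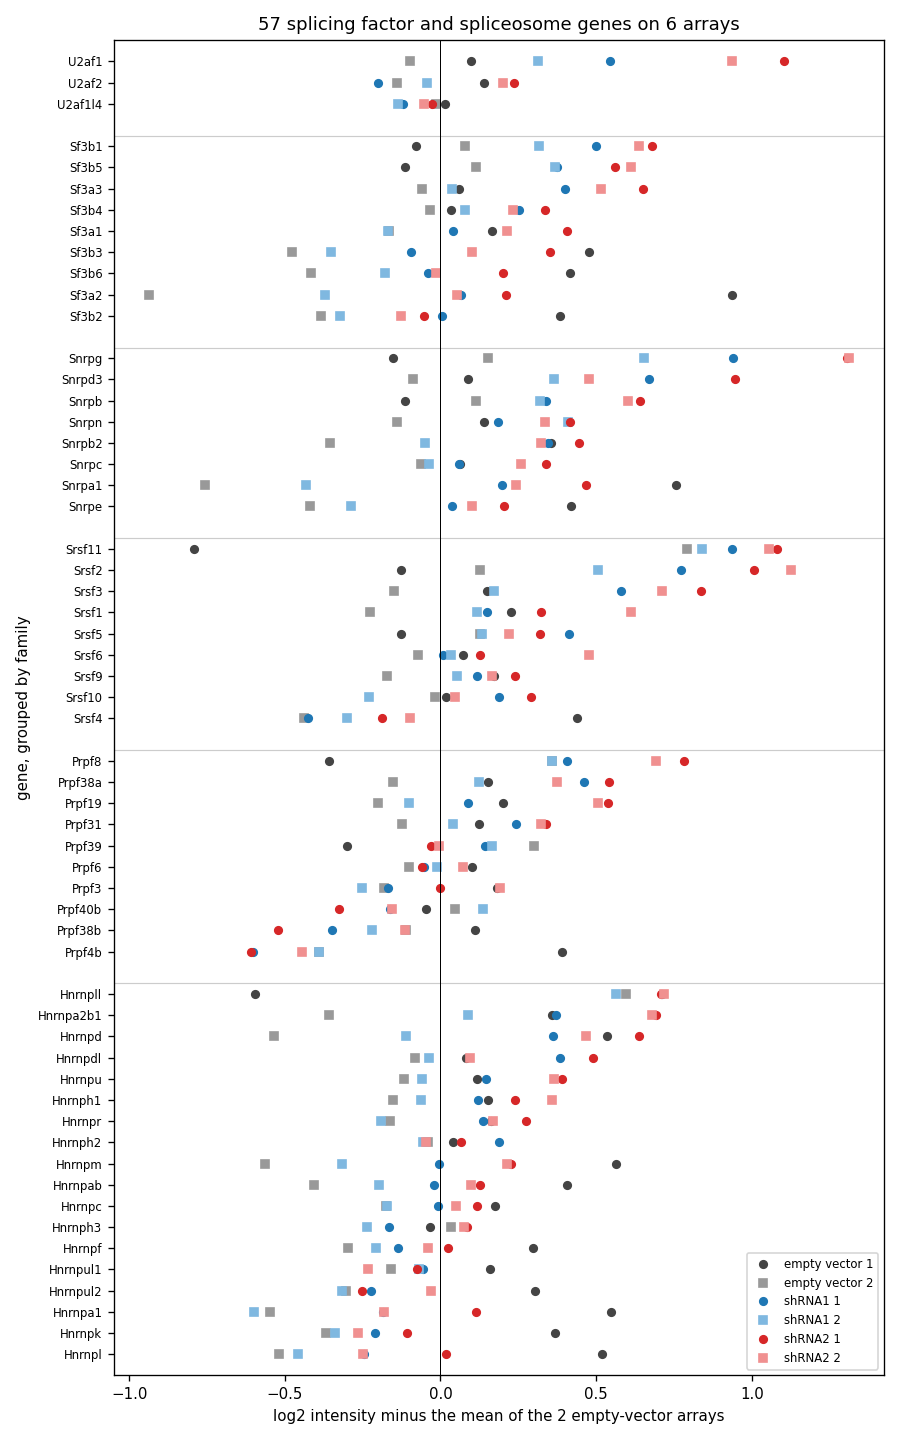
Log2 intensity of each of the 57 members (rows, grouped by family) on each of the 6 arrays, minus the mean of the 2 Empty Vector arrays; circles are replicate 1, squares replicate 2, in grey for Empty Vector, blue for shRNA1 and red for shRNA2. Red symbols lie to the right of blue ones in most rows, and the grey symbols are far apart for Sf3a2, Snrpa1 and Srsf11.

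Without Empty Vector replicate 1 the members stood further from the remaining control. The median difference was then 0.31, against 0.02 for all genes, 51 of 57 lay above 0, and 2 members were called, Snrpg and U2af1, where 5.24% of all genes were. Without Empty Vector replicate 2 the median was -0.03, 27 lay above 0, and 9 members were called higher and 5 lower, where 25.2% of all genes were called. The sign of the median thus rests on Empty Vector replicate 2. Each of these fits leaves 1 control array, so calls in them are not read as results about the members.

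With shRNA1 alone no member was called by limma, where 0.234% of all genes were (0.0968% higher and 0.137% lower). At an unadjusted p under 0.05 the count was 4 members, all higher, against 3.86% of genes higher, 5.44% lower and 9.3% either way. The median difference was 0.01 (-0.0018 after quantile normalization), against -0.03 for all genes and 0.02 for the brighter 50%. Of the 57, 29 lay above 0, against 44.8% of all genes and 3227 of 6196 of the brighter 50%. Both shRNA1 arrays lay above both controls in 13 members, against 15.2% of genes, and below in 4, against 19.5%. With shRNA2 alone 3 members rose, Snrpg, Srsf2 and U2af1, and none fell, where 0.88% of all genes rose, 1.95% fell and 2.83% were called in all. At an unadjusted p under 0.05 there were 12 members, all higher, against 8.59% of genes higher, 9.24% lower and 17.8% either way. The median with shRNA2 was 0.27, against -0.01 for all genes, and 44 (77.2%) lay above 0, against 48.4%. Of the brighter 50% of genes 3399 of 6196 lay above 0, with a median of 0.06. Both shRNA2 arrays lay above both controls in 30 members (52.6%, against 21.6% of genes) and below in 4, against 22.6%. These contrasts share both control arrays. The calls for both shRNAs together and for shRNA2 were lost with any 1 of the 4 shRNA arrays left out. Such fits leave 1 array in a group, so this loss is not read as a result about the members. The members' median then ran from 0.07 to 0.18 for both shRNAs and from 0.21 to 0.29 for shRNA2. Fits without 1 control array leave 1 array in that group too, so calls in them are not read as such results either. Leaving out Empty Vector replicate 1 gave a median of 0.18 with shRNA1 and no call, and 0.40 with shRNA2 with 7 calls, where 8.89% of all genes were called. With shRNA2 the 7 were Snrpg, Srsf2 and U2af1 as before plus Sf3a2, Prpf19, Hnrnpa2b1 and Hnrnpd. Leaving out replicate 2 instead gave -0.13 with shRNA1, with 5 members higher and 7 lower, and 0.11 with shRNA2, with 9 higher and 2 lower, where 20.4% and 23.7% of all genes were called.

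U2AF is a heterodimer in which the small subunit U2af1 reads the AG dinucleotide at the intron's end and the large subunit U2af2 binds the polypyrimidine tract before it. U2af1 had a log2 intensity of 9.84 and 9.65 with Empty Vector, 10.29 and 10.06 with shRNA1, and 10.85 and 10.68 with shRNA2. The 3 groups did not overlap, and the shRNA2 arrays were the highest. Its difference with shRNA2 was 1.02 (adjusted p = 0.043 in limma), a call that is lost when the dimmer 50% of genes are left out (adjusted p = 0.0551) or an intensity trend is fitted (adjusted p = 0.0555). For both shRNAs the difference was 0.72 ± 0.15 with an adjusted p of 0.0823, from 0.0394 to 0.327 over the alternatives.

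U2af2 differed by only 0.05 ± 0.15, with 9.94 and 9.66 in the controls, 9.60 and 9.75 with shRNA1, and 10.03 and 9.999 with shRNA2, and the shRNA1 arrays overlapped the controls. U2af1l4, which encodes a protein related to the small subunit, spanned 8.30 to 8.45 over all 6 arrays and differed by -0.08 ± 0.12.

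SF3B1 is the scaffold that clamps the branch point within the U2 snRNP. Sf3b1 had 10.84 and 10.996 in the controls, 11.42 and 11.24 with shRNA1, and 11.60 and 11.56 with shRNA2, so that all shRNA arrays lay above both controls. The difference was 0.53 ± 0.14 (adjusted p = 0.129 in limma), and it was 0.46 without Empty Vector replicate 1 and 0.61 without replicate 2. Sf3b5, a small subunit of the same complex, gave 9.95 and 10.17, then 10.44 and 10.43, then 10.62 and 10.67, a difference of 0.48 ± 0.13 (adjusted p = 0.163).

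For the other subunits named by the rule the control arrays disagreed. Sf3a2, a subunit of the SF3A trimer, had 11.02 on control replicate 1 and 9.15 on replicate 2, and its shRNA arrays, at 10.16, 9.72, 10.30 and 10.14, all fell between them. Its difference was -0.01 ± 0.50 with both controls, 0.93 without replicate 1 and -0.95 without replicate 2. Sf3b2, which binds beside the branch point, likewise had controls at 11.35 and 10.59 around shRNA arrays of 10.65 to 10.97, with a difference of -0.12 ± 0.24. Sf3a1, a partner of Sf3a2 in the trimer, differed by 0.12 ± 0.16, with shRNA2 arrays at 8.58 and 8.39 above controls of 8.34 and 8.01. Its shRNA1 arrays were at 8.21, between the controls, and at 8.00, just below the lower one. In this family 6 of 9 members had a positive difference, with a median of 0.12, and without Empty Vector replicate 1 all 9 did, with a median of 0.41. Without replicate 2 the median was -0.04 and 4 of 9 were positive.

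The Snrp genes encode Sm ring proteins and proteins specific to single snRNPs. Snrpg, a subunit of the Sm ring, had 10.51 and 10.81 in the controls, 11.60 and 11.31 with shRNA1, and 11.97 on both shRNA2 arrays. The groups did not overlap. Snrpg rose by 1.05 ± 0.16 for both shRNAs, 2.07-fold on the linear scale (adjusted p = 0.0412 in limma), and by 1.31 ± 0.18 with shRNA2, 2.48-fold (adjusted p = 0.0282), while with shRNA1 the difference was 0.80 (adjusted p = 0.225). With replicate number as a block the call for both shRNAs was lost (adjusted p = 0.0554) and that for shRNA2 stayed (adjusted p = 0.0394). Over the alternatives the adjusted p for both shRNAs ran from 0.00633 to 0.195. Its second probe set gave 9.78 and 10.25, then 10.70 and 10.56, then 11.08 on both shRNA2 arrays, a difference of 0.84 in the same order.

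Snrpe, another Sm ring subunit and the brightest member of this family, gave 12.43 and 11.59 in the controls and 11.73 to 12.22 on the shRNA arrays, which lay between the controls, with a difference of 0.01 ± 0.26. Snrpn, an Sm protein gene best known from brain and from an imprinted locus, was the dimmest member and had 5.21 and 4.93, then 5.26 and 5.48, then 5.49 and 5.41, a difference of 0.34 ± 0.15 (adjusted p = 0.341). Its other probe sets are shared with Snurf, which is encoded on the same transcript, and do not enter the comparisons. The brighter ones, with control means of 10.03 and 9.87, differed by only -0.03 and 0.07 for both shRNAs. The dimmer ones, at 4.22 and 5.44, differed by 0.08 and -0.07, so the difference of 0.34 rests on 1 dim probe set. Snrpb and Snrpd3, also Sm subunits and picked here after their values were seen, differed by 0.48 ± 0.13 (adjusted p = 0.164) and 0.62 ± 0.19 (adjusted p = 0.196), with every shRNA array above both controls. All 8 Snrp genes had a positive difference for both shRNAs, with a median of 0.30, although Snrpg was the one that passed the threshold. The median was 0.55 without Empty Vector replicate 1 and 0.14, with 5 of 8 positive, without replicate 2.

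**Figure D2:**
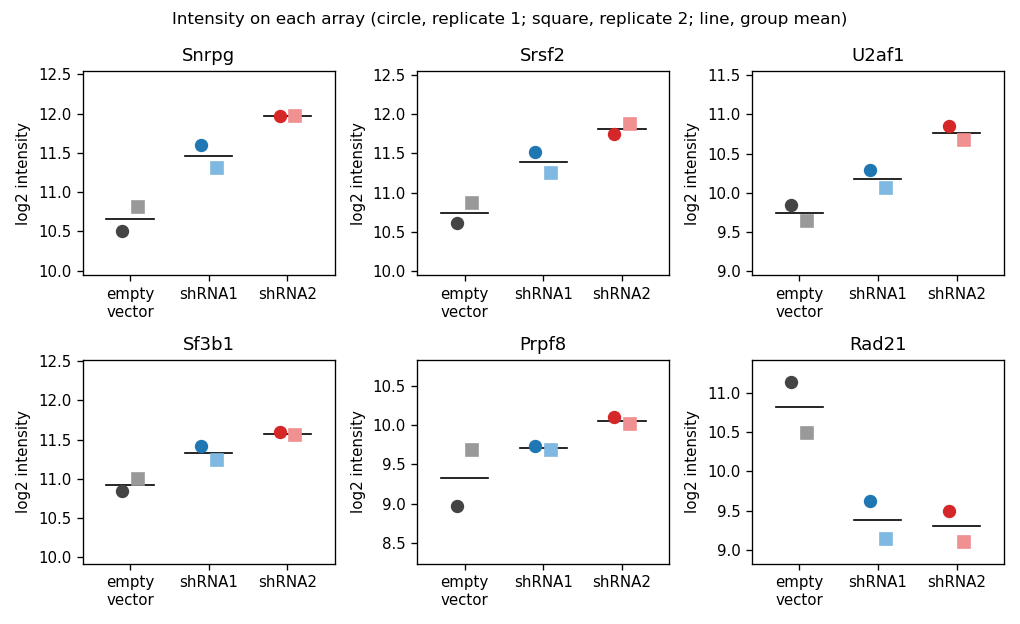
Log2 intensity of Snrpg, Srsf2, U2af1, Sf3b1, Prpf8 and Rad21 on each array, by group; circles are replicate 1, squares replicate 2 and lines group means, and the vertical axis differs between panels. For the splicing genes Snrpg, Srsf2 and U2af1 the 3 groups do not overlap and shRNA2 is highest, while the Rad21 levels of the shRNA groups do overlap.

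SR proteins bind exonic enhancers and recruit U2AF and the U1 snRNP. Srsf2 had 10.62 and 10.87 in the controls, 11.52 and 11.25 with shRNA1, and 11.75 and 11.87 with shRNA2, again without overlap between the groups. It rose by 1.07 with shRNA2 (adjusted p = 0.0427 in limma), a call lost with replicate number as a block (adjusted p = 0.0567), with the dimmer 50% of genes left out (adjusted p = 0.0547) or with the mean of all its probe sets (adjusted p = 0.0704). For both shRNAs the difference was 0.85 ± 0.16 (adjusted p = 0.0593, from 0.0112 to 0.243 over the alternatives). Its other probe sets gave differences of 0.91, 1.06 and 0.13.

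Srsf5, the brightest gene of this family, had 11.77 and 12.02, then 12.31 and 12.03, then 12.21 and 12.11, a difference of 0.27 ± 0.16 with shRNA arrays only just above the higher control. Srsf10, a repressor that is activated on dephosphorylation, was the dimmest and differed by 0.07 ± 0.17, with shRNA1 arrays at 9.30 and 8.88 on either side of the controls at 9.13 and 9.10. Srsf3 and Srsf11 were picked after their values were seen. Srsf3, which also takes part in RNA export, had 11.37 and 11.07, then 11.80 and 11.39, then 12.05 and 11.93, a difference of 0.58 ± 0.18 (adjusted p = 0.196). Srsf11 had 8.79 and 10.37 in the controls and 10.42 to 10.66 on the shRNA arrays, so its difference of 0.98 ± 0.42 shrank to 0.19 without Empty Vector replicate 1. In this family 8 of 9 members had a positive difference, with a median of 0.27. The median was 0.23 without that array and 0.09, with 7 of 9 positive, without replicate 2.

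The Prpf genes act mainly in the U4/U6.U5 tri-snRNP and the complexes that activate it. PRPF8 sits at the catalytic centre, and Prpf8 had 8.97 and 9.68 in the controls, 9.73 and 9.68 with shRNA1, and 10.10 and 10.01 with shRNA2. All shRNA arrays lay above both controls, those of shRNA1 only barely above control replicate 2, and the difference of 0.56 ± 0.22 (adjusted p = 0.281 in limma) was 0.20 without Empty Vector replicate 1 and 0.92 without replicate 2. Prpf38a, needed for activation, had 8.71 and 8.41, then 9.02 and 8.68, then 9.10 and 8.93, a difference of 0.37 ± 0.17 (adjusted p = 0.347).

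Other Prpf genes did not follow these. Prpf4b, a kinase that phosphorylates tri-snRNP proteins, had 9.81 on control replicate 1 and 9.03 on replicate 2, and its shRNA arrays at 8.81 to 9.03 matched the second control. Its difference of -0.51 ± 0.24 was -0.12 without Empty Vector replicate 1, and 0.11 when all 6 of its probe sets were averaged. Prpf38b, a relative of Prpf38a, differed by -0.30 ± 0.17, and Prpf40b, the dimmest gene of this family and related to a yeast U1 snRNP protein, by -0.13 ± 0.15, with its arrays between 6.63 and 7.10. Prpf19, the ubiquitin ligase of the activation complex, separated the shRNAs: it had 10.33 and 9.93 in the controls, 10.22 and 10.03 with shRNA1, and 10.67 and 10.64 with shRNA2. The family was evenly split, with 5 of 10 differences above 0 and a median of 0.03, which was 0.11 without Empty Vector replicate 1 and -0.01 without replicate 2.

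The hnRNP genes had a median difference of 0.02 with 10 of 18 above 0. Hnrnpa2b1, whose protein binds exonic silencers and sorts RNAs, had 12.07 and 11.36 in the controls, 12.09 and 11.80 with shRNA1, and 12.41 and 12.40 with shRNA2, a difference of 0.46 ± 0.23 (adjusted p = 0.387 in limma). Hnrnpll, a regulator of Ptprc splicing in lymphocytes, had 9.12 and 10.32 and shRNA arrays from 10.28 to 10.44, so that its difference of 0.68 ± 0.33 was 0.08 without Empty Vector replicate 1. Hnrnpl, which binds CA repeats, and Hnrnpk, which binds C-rich RNA, both differed by -0.23, and for both control replicate 1 was the highest of all arrays, at 10.15 and 13.04. Without that array their differences were 0.28 and 0.14.

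Hnrnph3, the dimmest hnRNP gene, had 8.81 and 8.87 in the controls, 8.67 and 8.60 with shRNA1, and 8.92 on both shRNA2 arrays, so the shRNAs lay on opposite sides of the controls, by -0.20 and 0.08. Of the 18 hnRNP genes, 16 were brighter on control replicate 1 than on replicate 2, with a median gap of 0.47. Without replicate 1, 17 of the 18 had a positive difference, with a median of 0.27. Without replicate 2 the median was -0.19 and 5 of 18 were positive.

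In the contrast of the shRNAs with each other, the differences use no control array. Their standard errors and p-values do, because limma estimated the spread of each gene over all groups together, Empty Vector included. Calls in this contrast, and their absence, therefore rest in part on the spread between the control arrays. The members were lower with shRNA1 than with shRNA2 in 50 of 57 cases (87.7%), against 55.0% of all genes, with a median of -0.24 against -0.02. Of the brighter 50% of genes 3478 of 6196 were lower with shRNA1, with a median of -0.03. In 36 members (63.2%, against 23.9% of genes) both shRNA1 arrays lay below both shRNA2 arrays, and in 2 members (against 17.7% of genes) both lay above. No member, and none of the 12393 genes (0.0%), passed the threshold in limma, and at an unadjusted p under 0.05 there were 3 members, all lower with shRNA1, where 1.63% of genes were lower, 3.26% higher and 4.89% either way. These were U2af1 at -0.59 ± 0.17 (unadjusted p = 0.0142, adjusted p = 0.694), Prpf19 at -0.53 ± 0.19 (unadjusted p = 0.0323, adjusted p = 0.909) and Snrpg at -0.51 ± 0.18 (unadjusted p = 0.0331, adjusted p = 0.909).

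The median was negative in all 6 families, and the Prpf genes had the smallest median. All 3 U2af genes (median -0.34), all 9 Sf3a and Sf3b genes (-0.25) and all 8 Snrp genes (-0.28) were lower with shRNA1, as were 8 of 9 Srsf genes (-0.22) and 16 of 18 hnRNP genes (-0.23). Of the Prpf genes 6 of 10 (60.0%) were, with a median of -0.10, a share near the 55.0% of all genes. The signs of these medians were the same after quantile normalization and after centring each array. Ordered by group means, 26 members (45.6%, against 24.99% of genes) ran Empty Vector, shRNA1, shRNA2 from low to high, and 16 (28.1%, against 11.6%) ran shRNA1, Empty Vector, shRNA2. The Rad21 levels of the shRNA groups, given above, differed by less than the standard error of that difference.

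**Figure D3:**
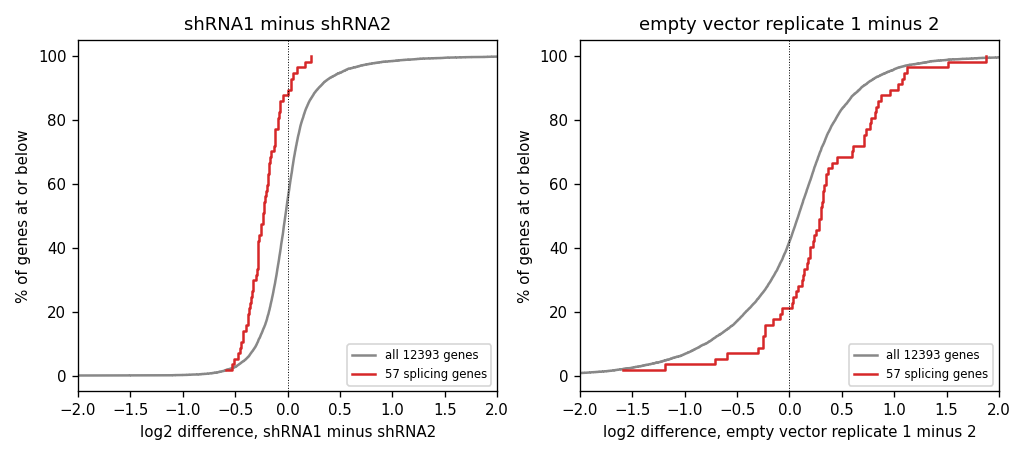
Cumulative share of genes (%) at or below each log2 difference, for the 57 members (red) and all 12393 genes (grey); on the left shRNA1 minus shRNA2, on the right Empty Vector replicate 1 minus replicate 2. The red curve reaches 87.7% at 0 on the left, where the grey one is at 55.0%, and on the right it lies to the right of the grey curve over most of its range.

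Of the members, 36 have more than 1 probe set, which on a 3′ array can read different transcript ends. In the contrast of the shRNAs with each other the probe sets of a gene lay close together, with a median range of 0.17 within a gene, no range above 1, and the same sign as the brightest probe set in 65 of the other 84. Between the control arrays the median range was 1.02, and 21 of the 36 genes had a range above 1. For both shRNAs against the controls it was 0.55, and 6 genes exceeded 1. It was 0.29 with 1 gene above 1 without Empty Vector replicate 1, and 1.00 with 18 genes above 1 without replicate 2. The probe sets of a gene had 1 sign in 21 of 36 genes with both controls, in 25 without replicate 1 and in 14 without replicate 2. For shRNA1 against shRNA2 they had 1 sign in 23.

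Hnrnpf had the largest range for both shRNAs and Hnrnpu the largest between the control arrays, and both were picked after their values were seen. The brightest Hnrnpf probe set had 12.67 and 12.07 in the controls, whereas the third had 8.83 and 10.45, so control replicate 1 was the higher in one and the lower in the other. On the shRNA arrays the third read 10.70 to 10.98, and the differences of the 4 Hnrnpf probe sets were -0.09, -0.07, 1.24 and 1.05. For Hnrnpu the brightest probe set had 11.63 and 11.39 in the controls and the dimmest 4.48 and 6.88, a gap between the controls of -2.40. The brightest differed by 0.21 ± 0.14 for both shRNAs. Of the Sf3b1 probe sets, one gave 0.53 like the brightest and one -0.18.

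**Figure D4:**
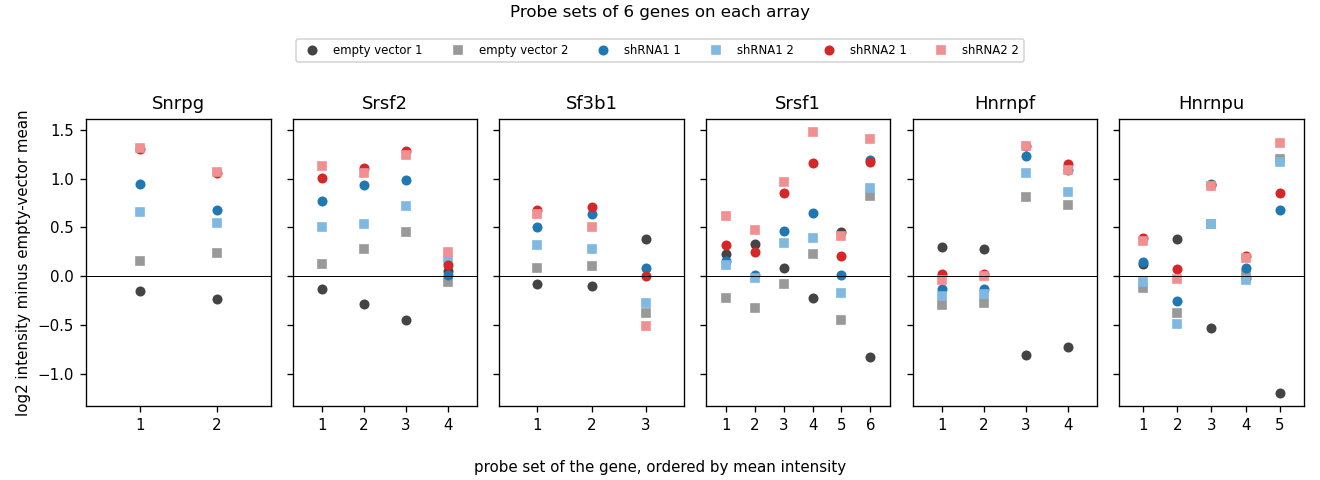
Log2 intensity of each probe set of Snrpg, Srsf2, Sf3b1, Srsf1, Hnrnpf and Hnrnpu on each array, minus the mean of the 2 Empty Vector arrays, with probe sets ordered from the brightest; circles are replicate 1, squares replicate 2, grey Empty Vector, blue shRNA1 and red shRNA2. The probe sets of Snrpg agree, while Empty Vector replicate 1 lies far below the other arrays on the dimmer Hnrnpf probe sets.

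The rest of the pathway was taken from a list of 127 further splicing genes, of which 103 were measured. None of them passed the threshold in limma for any of the 4 contrasts. For both shRNAs 19 passed at an unadjusted p under 0.05, 17 higher and 2 lower, where 7.88% of all genes were higher and 8.84% lower. Of the 103, 66 (64.1%) lay above 0, against 46.4% of all genes and 3323 of 6196 of the brighter 50%. The median was 0.07, and it was 0.01 with shRNA1 and 0.20 with shRNA2. With shRNA1 against shRNA2, 84 of 103 (81.6%, against 55.0% of all genes) were lower with shRNA1, with a median of -0.19. Without Empty Vector replicate 1 the median for both shRNAs was 0.22. Without replicate 2 the median was -0.01 and 50 of 103 lay above 0.

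Tra2b and Smn1 had the smallest p among those higher, and Srrm2 and Clk3 among those lower. Tra2b, an SR-like activator, had 10.41 and 10.91, then 11.54 and 11.19, then 11.68 and 11.61, a difference of 0.85 ± 0.20 (adjusted p = 0.106). Smn1, which loads Sm rings onto snRNAs, had 5.71 and 6.40, then 7.11 and 6.71, then 7.33 and 7.11, a difference of 1.01 ± 0.24 (adjusted p = 0.114). Srrm2, a large scaffold of nuclear speckles, differed by -0.68 ± 0.23 (adjusted p = 0.225) and Clk3, a kinase of SR proteins, by -0.48 ± 0.19 (adjusted p = 0.281). All shRNA arrays of Tra2b and Smn1 lay above both controls.

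Growth genes were followed on the same arrays. The members' mean log2 intensity was 10.23 and 9.92 in the controls, 10.22 and 10.06 with shRNA1, and 10.39 and 10.34 with shRNA2. The mean of 19 measured mitosis genes was 8.92 and 7.81, then 9.25 and 8.85, then 9.51 and 9.55. For both shRNAs 5 of them were called higher, where 0.734% of all genes were, and none in the next 2 lists. For 19 DNA replication genes the means were 9.23 and 8.26, then 9.17 and 8.72, then 9.51 and 9.37, and for 15 Myc-related and nucleolar genes 9.63 and 9.26, then 9.73 and 9.33, then 9.9996 and 9.92. All 3 lists were lowest on Empty Vector replicate 2 and highest on the shRNA2 arrays, as the members were. Over the 6 arrays the genes most correlated with the members' mean were Nudc, Lsm3, Nolc1, Phgdh and Thop1, with r from 0.997 to 0.999. With a mean that includes them, 22 members had an r above 0.8 and 4 had an r below 0. No share over all genes is set beside these counts. Whether the arrays were normalized jointly is not known, and these correlations over 6 arrays are given as a description.

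Lineage markers differed too. Of 10 neutrophil and granulocyte precursor markers 5 rose past the threshold for both shRNAs, where 0.734% of all genes rose and 1.4% fell. Their mean log2 intensity was 8.92 to 10.09 in the controls, 11.80 to 12.45 with shRNA1 and 12.76 to 12.79 with shRNA2. The 7 measured mast cell and basophil markers had means of 11.62 to 11.92, 10.57 to 10.99 and 10.66 to 10.72, and the 6 measured megakaryocyte markers 10.65 to 10.85, 9.09 to 10.11 and 9.18 to 9.24. The 8 measured erythroid markers had 9.12 on control replicate 1 and 7.18 on replicate 2, with 6.35 to 6.95 on the shRNA arrays. The 10 monocyte and macrophage markers had means of 9.22 to 9.80, 9.45 to 9.52 and 8.66 to 8.74. For both shRNAs limma called 3 mast cell and basophil, 2 monocyte and macrophage and 1 megakaryocyte marker lower. It called 1 monocyte and macrophage marker and 1 T and NK cell marker higher, and no erythroid one either way. Of the measured T and NK cell markers 4 of 6, and of the stromal and endothelial ones 5 of 7, were below the array median on every array. The part of cell makeup and growth in the levels of the splicing genes was not tested.

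**Figure D5:**
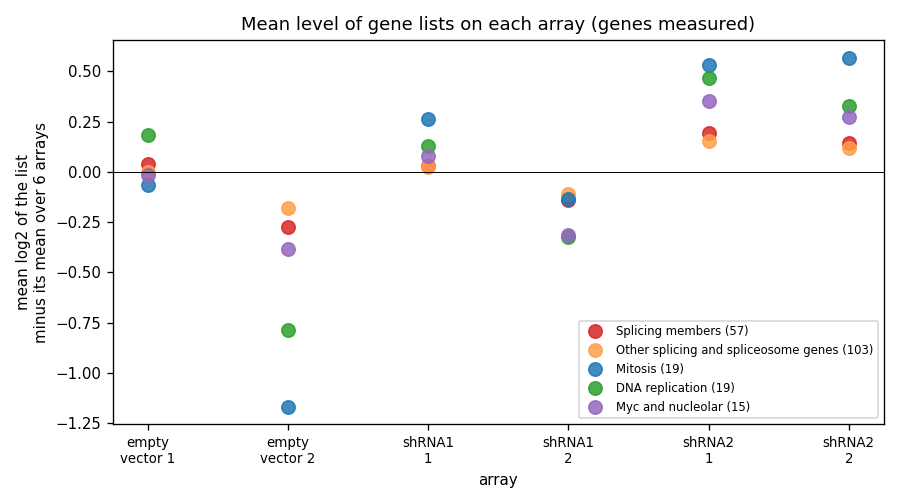
Mean log2 intensity of each gene list on each array minus the list's mean over the 6 arrays, for the 57 members, 103 other splicing genes, 19 mitosis, 19 DNA replication and 15 Myc-related and nucleolar genes; the number measured is in the legend. All lists are lowest on Empty Vector replicate 2 and above their own mean on both shRNA2 arrays.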

How the data were processed

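RNA of 6 samples, 2 for each of 3 groups given by the sample titles, was measured on Affymetrix arrays. The deposited table holds 1 intensity per probe set and array on a linear scale, which the authors made by RMA (submitters' processing notes). The software, its version, the genome build and the set of arrays normalized jointly were not given in the sources used here. Array medians ran from 100.2 to 104.9. Log2 was taken with no pseudocount and no low-value filter, so all 57 members were tested. Of 22690 probe sets, 20393 had 1 gene in the platform annotation, 691 several and 1606 were not listed. With 64 control probe sets set aside, 20380 gave 12393 genes. The number of arrays limits the precision, and limma (version 3.58.1, R 4.3.3) was fitted to all 3 groups at once with 3 residual degrees of freedom. All tests were two-sided, and other numbers and plots were made with Python 3.11.15.

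The members and lists were chosen with earlier results of these data known. Genes named were Rad21, U2af1, Srsf2, Sf3b1 and Prpf8, then per family each member past the threshold, otherwise the 2 with the largest difference in each direction and the brightest and dimmest member. Alternatives were filters on dim genes, the mean of all probe sets, quantile normalization, centring, trend and robust settings, a replicate block and leaving out each array. Same-numbered arrays deviated together from their group means (r = 0.20, 0.15 and 0.58 over genes for the 3 pairs of groups). The numbers taken from the titles were read as pairs in the replicate block only. The main fits, and the p-values given without mention of the block, did not use this pairing. Promoter sequences are RefSeq's, build GRCm38.p6.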

Additional observations from a re-analysis of the deposited data

Results flagged for a closer look

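Hnrnph3 was flagged because every shRNA1 array lay below both controls and every shRNA2 array above both. Its shRNA2 arrays, at 8.92, were only just above the higher control at 8.87. The same order of group means, a looser condition that lets arrays overlap, held in 11.6% of all genes. The shRNAs differed by -0.28, and in limma the test of this difference gave an adjusted p of 0.999.

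Probe sets shared between genes were outside the comparisons, and no test was run on them. One probe set of Hnrnpa1, Hnrnpa1l2-ps2, Gm10052 and Gm5643 had 9.0006 and 10.08 in the controls, 10.64 and 10.40 with shRNA1, and 10.92 and 10.93 with shRNA2, a difference of 1.18 for both shRNAs. Another of the same genes had 9.65 and 10.08, then 10.63 and 10.28, then 11.03 and 10.96, a difference of 0.86. For Hnrnpa3 with Gm6793, one had 11.30 and 11.65, then 12.27 and 12.11, then 12.49 and 12.51, a difference of 0.87, and another had 8.92 and 8.83, then 9.01 and 8.95, then 8.97 and 9.23, a difference of 0.16. These 4 of 15 shared probe sets stood out because all their shRNA arrays lay above both controls, as in 11.5% of all genes. The other 11 did not have this pattern, and their differences ran from -0.27 to 0.85. The unshared Hnrnpa1 probe set that represents the gene differed by -0.21, by 0.33 without Empty Vector replicate 1 and by -0.76 without replicate 2.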

How the results depend on the processing

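Over the alternatives that keep all 6 arrays, 319 of 333 values kept their direction and their side of the threshold. For both shRNAs the count of members called higher went from 1 to 0 with the dimmer 50% of genes left out, with the mean of all probe sets and with the replicate block, and for shRNA2 it went from 3 to 1 with the dimmer 50% left out. The block, which follows the pairing by replicate number, also changed the calls of Rad21, which passed with it, and of Srsf2 with shRNA2, which did not, and no other call given. Averaging all probe sets turned Sf3b2 to 0.14, Sf3a2 to 0.064 and Prpf4b to 0.11, and centring turned Sf3a2 to 0.017. The cause was not tested.

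Leaving out 1 array at a time moved the values more, and 14 of 252 values reversed. For both shRNAs the members called higher ran from 0 to 9, those called lower from 0 to 5 and the median from -0.027 to 0.315. For shRNA1 these ran from 0 to 5, from 0 to 7 and from -0.13 to 0.18, and for shRNA2 from 0 to 9, from 0 to 2 and from 0.11 to 0.40. The highest counts came without Empty Vector replicate 2, which also leaves 1 array in a group. With any 1 shRNA array left out the calls for both shRNAs and for shRNA2 were lost, in fits that leave 1 array in a group. The difference for both shRNAs ran from -0.091 to 0.19 for U2af2, -0.51 to 0.26 for Sf3b2, -0.95 to 0.93 for Sf3a2, -0.042 to 0.29 for Sf3a1, -0.41 to 0.43 for Snrpe, -0.031 to 0.18 for Srsf10, -0.75 to 0.28 for Hnrnpl and -0.60 to 0.14 for Hnrnpk. The difference between the shRNAs in Rad21 ran from -0.17 to 0.32. A group left with 1 array was assumed to vary like the others.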
